A study of Mus musculus with 18 samples.

Results

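Circadian clock and output genes were followed in the livers of mice that lacked dietary vitamin B2, without and with the PPARα agonist fenofibrate. The genes were chosen by name from what is known of the clock, but with earlier results of these data known. They are the activators Arntl, Npas2 and Clock, the repressors Per1, Per2, Cry1 and Nr1d1, and the output genes Dbp and Wee1. All 9 were found among the 54532 genes of the expression tables. All mice were wild-type C57BL/6J males, their livers were taken after an overnight fast, and poly(A) RNA of each liver was sequenced as its own library. In the first experiment, 5 mice ate an isocaloric control diet (Ctrl) and 5 a vitamin B2-deficient diet (B2D) for 1 month. In the second, 4 mice on each diet (Ctrl+FF and B2D+FF) ate it for 9 weeks and received fenofibrate by daily gavage from week 7 to week 9, with the last dose 2 hours before harvest. Diet effects below are taken within 1 experiment, whose groups shared the drug, or its absence, and the time on the diet. No hour of the day is given for either harvest, and each experiment has 1 harvest, so a shift of the clock's phase and a change of a gene's level cannot be told apart.

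The mammalian clock is a loop of transcription and repression. ARNTL (also called BMAL1) pairs with CLOCK or its relative NPAS2, binds E-box elements and activates the Per and Cry genes, whose proteins return to the nucleus and repress that activation. In a second loop, NR1D1 (REV-ERBα), itself an E-box target, represses Arntl through ROR response elements (RORE) that the ROR receptors use to activate it. In mouse liver the transcripts of the activators (called the morning arm here) and those of their targets Per1, Per2, Nr1d1, Dbp and Wee1 (the evening arm) peak at opposite times of day. Cry1 carries both E-box and RORE control, peaks later than the Per genes and was kept out of both arms. Feeding and fasting set the time of the liver clock, and glucocorticoids and PPARα act on several of its genes.

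The control elements of the loop could be read in part from RefSeq promoter windows (build GRCm38.p6), which run from 250 bases before to 50 bases after a transcript start. Such windows were found for 7 of the 9 genes, 11 windows in all. They were searched on both strands for the E-box CACGTG, for TAGGTCA, the core of the RORE, and for the D-box TTATGTAA, the element of DBP and its relatives. No match of one motif overlapped a match of another. An E-box stood in 1 of the 2 windows of Per1, beginning 166 bases before the start of that transcript. This start lies downstream of the annotated start of the gene, at base 69095217 of chromosome 11. The window of Cry1 also held an E-box, beginning 60 bases before its start, while 7.15% of all 32851 windows held one. A RORE core stood in a window of Arntl, beginning at base 31 of the transcript, against 2.61% of all windows. The D-box, held by 0.938% of all windows, was in none of the 11, which says only that these letters are not in these stretches. The windows of Npas2, Clock, Nr1d1 and Dbp held none of the motifs, and that of Cry1 held no RORE core. The 3 matches shown are all that were found, and binding at them was not tested. Each is written from 5′ to 3′ on the strand of its gene with the motif in capitals, from chr11:69098771-69098800 (plus strand) for Per1, chr10:85185097-85185126 (minus strand) for Cry1 and chr7:113207530-113207559 (plus strand) for Arntl.

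Per1 E-box: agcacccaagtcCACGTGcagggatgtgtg

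Cry1 E-box: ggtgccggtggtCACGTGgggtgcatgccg

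Arntl RORE: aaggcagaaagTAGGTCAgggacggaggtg

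Values are FPKM, fragments per kilobase of gene length scaled for library size, a level per length that can be compared between genes of 1 table. Libraries held 15320729 to 21898502 reads assigned to genes. Every FPKM value apart from those of the highest read counts converted back to a whole number of reads, and those were rounded without this check. Hepatocyte genes were high in all libraries (7 of 8 markers were found, summing to 18813 to 46338 FPKM per library), and markers of lymphocytes and neutrophils summed to at most 10.96 FPKM. Markers of Kupffer cells and macrophages summed to at most 111.8 FPKM and endothelial ones to at most 40.1 FPKM. The highest sums were 45.4 FPKM for stellate cells and fibroblasts, 38.4 FPKM for cholangiocytes and 590.8 FPKM for erythroid cells. The fat cell markers Adipoq and Plin1 were near 0 in most libraries, but B2D 2 held 146 and 98 reads of them (6.19 and 1.23 FPKM) and Ctrl+FF 1 held 56 and 22. B2D 2 was also the B2D mouse with the highest Arntl, Npas2 and Per1 and the lowest Clock, Per2, Dbp and Wee1. Of the B2D mice, it had the highest mean of the morning arm and the lowest of the evening arm. The part of fat cell RNA in those values was not tested. Since whole liver was sequenced, fewer cells of a type and less RNA per cell cannot be told apart. Changes were tested with limma on log2(FPKM + 1), over all genes with a mean of at least 0.5 FPKM in the experiment, with Benjamini-Hochberg adjustment over all of them and a threshold of 0.05. Fold changes below are on that log2 scale, which understates the change of genes near or under 1 FPKM. Of the 9 genes, 7 were tested without fenofibrate (Arntl and Npas2 fell under the minimum) and 8 with it (Npas2 fell under). The threshold was passed by 1 of 7 genes without fenofibrate, where 2.70% of all genes passed, and by 1 of 8 with it, where 4.45% did. They were not the same gene: Wee1 was lower in B2D than in Ctrl, and Per2 was higher under B2D in the mice given fenofibrate. Before adjustment, 4 of 7 and 2 of 8 genes lay under 0.05 in limma's test, against 18.4% and 21.2% of all genes. Groups did not overlap for 0 of 7 genes without fenofibrate (4.98% of all genes) and for 1 of 8 with it (14.3%).

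**Figure D1:**
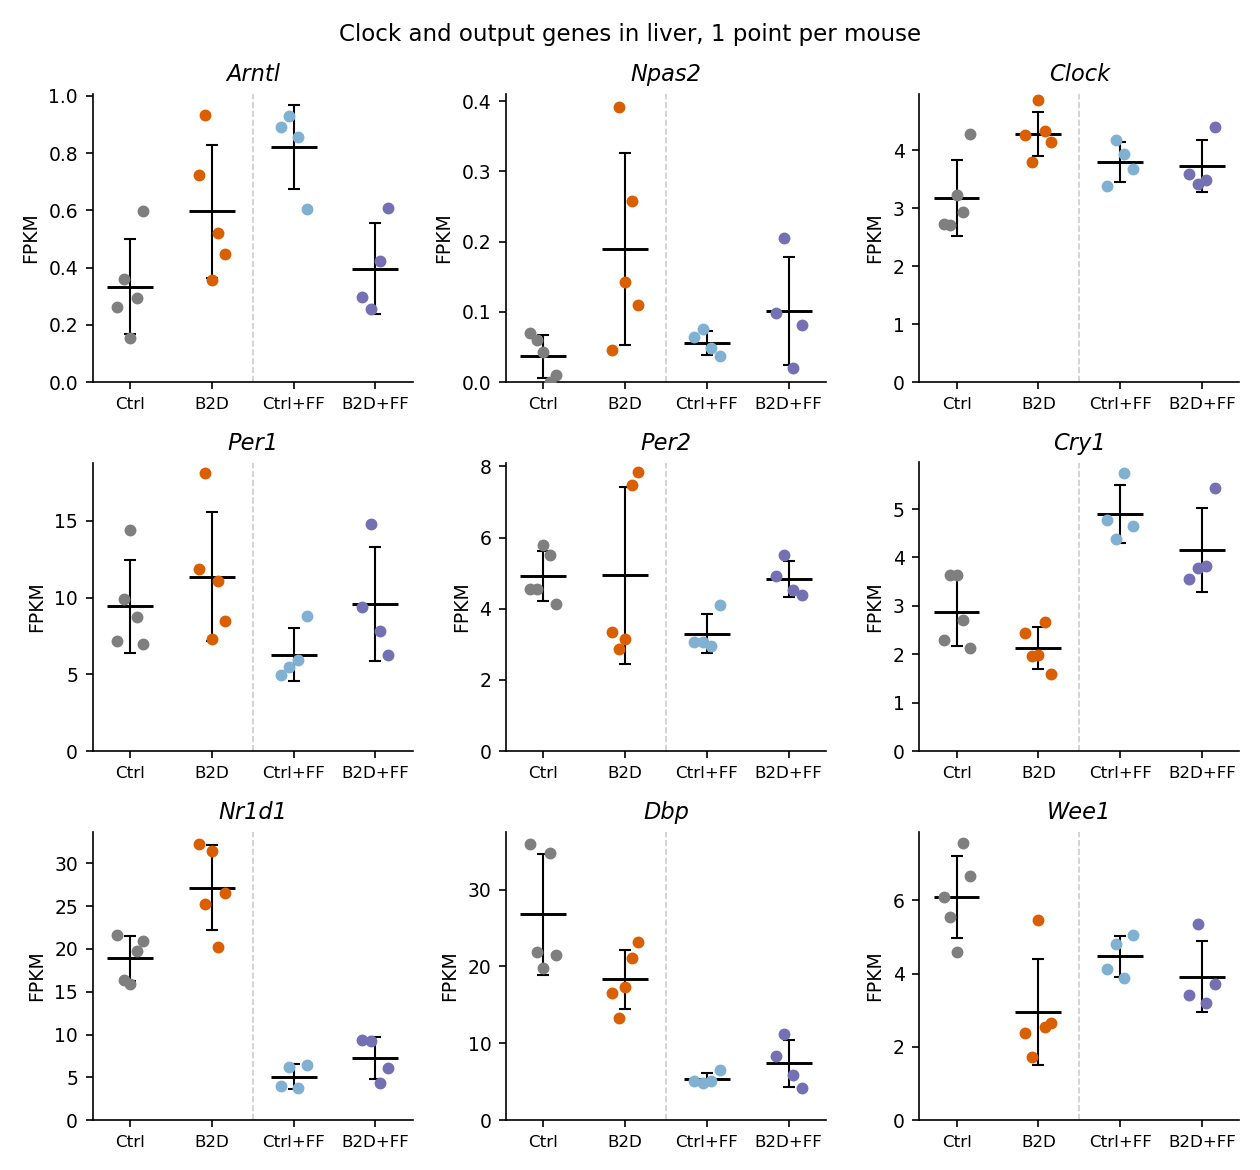
FPKM of the 9 genes in each mouse (points) of the 4 groups, with the group mean (horizontal line) and SD (bars), each panel with its own axis from 0; a dashed line parts the 2 experiments. Nr1d1 and Dbp sit lower in all 8 mice given fenofibrate than in any of the 10 without it, Wee1 is low in 4 of 5 B2D mice, and Per2 is higher in every B2D+FF mouse than in any Ctrl+FF mouse.

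Among the activators, the mean of Arntl was higher in B2D without fenofibrate and lower with it, and Arntl did not pass with it and was under the minimum for the test without it. Its level was 0.261, 0.359, 0.155, 0.295 and 0.597 FPKM in Ctrl mice 1 to 5 (numbered here in the order of the samples) and 0.722, 0.934, 0.356, 0.520 and 0.447 FPKM in B2D mice 1 to 5. Means were 0.334 ± 0.165 FPKM (SD, n = 5) and 0.596 ± 0.232 FPKM (n = 5), 1.79-fold apart, and 2 of 5 B2D mice lay above every Ctrl mouse. With fenofibrate the order was turned. The Ctrl+FF mice stood at 0.891, 0.929, 0.857 and 0.604 FPKM and the B2D+FF mice at 0.297, 0.255, 0.424 and 0.610 FPKM, means of 0.820 ± 0.147 and 0.396 ± 0.159 FPKM (n = 4 each), 2.07-fold lower in B2D+FF. Of the B2D+FF mice, 3 lay below every Ctrl+FF mouse, and B2D+FF 4 lay just above the lowest of them.

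The log2 fold change of Arntl with fenofibrate was -0.39 (SE 0.107, adjusted p = 0.0764). These values rest on 23 to 120 reads per library. On the recovered reads, tested with limma's voom over genes with a mean of at least 10 reads (a test added after the data were seen), Arntl was lower in B2D+FF by a log2 fold change of -1.09 (SE 0.260, adjusted p = 0.0285), where 5.96% of genes passed. Without fenofibrate the same test gave 0.87 (SE 0.342, adjusted p = 0.188).

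Npas2, the relative of Clock that can take its place as partner of ARNTL, was close to the limit of detection. Ctrl mice 1 to 5 held 6, 5, 4, 0 and 1 reads of it, and B2D mice 4, 32, 12, 24 and 10 reads. For the library with 0 reads, Ctrl 4, a limit of 3 reads allows up to 0.0315 FPKM. Levels averaged 0.0365 ± 0.0307 FPKM in Ctrl and 0.189 ± 0.137 FPKM in B2D, and 4 of 5 B2D mice were above all Ctrl mice. With fenofibrate, Ctrl+FF mice held 5, 6, 4 and 3 reads and B2D+FF mice 8, 20, 2 and 8, and the groups overlapped. With no minimum on expression, neither difference passed (adjusted p = 0.327 without fenofibrate and 0.668 with it).

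Clock, which encodes the partner of ARNTL, was the most abundant activator. It stood at 2.72, 2.71, 3.22, 2.94 and 4.28 FPKM in Ctrl and at 4.26, 3.80, 4.86, 4.34 and 4.13 FPKM in B2D mice 1 to 5. Only Ctrl 5 reached the B2D range, and the means were 3.17 ± 0.651 and 4.28 ± 0.384 FPKM. The log2 fold change of 0.35 (SE 0.110) did not pass (adjusted p = 0.120), and it passed when Ctrl 5 was left out (0.44, adjusted p = 0.0375). In the second experiment Clock averaged 3.79 ± 0.341 FPKM in Ctrl+FF and 3.72 ± 0.454 FPKM in B2D+FF. That log2 difference was -0.023, with a 95% interval from -0.23 to 0.18 (adjusted p = 0.916).

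**Figure D2:**
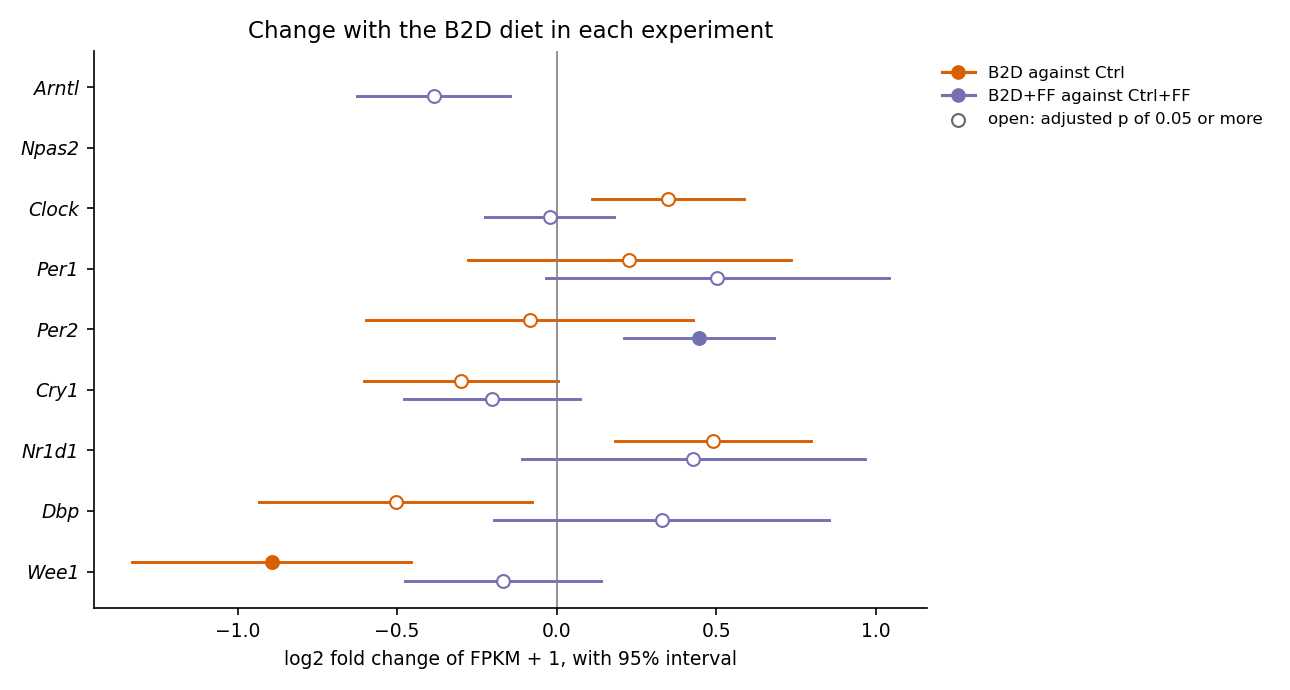
Log2 fold change of FPKM + 1 with the B2D diet (x axis; points, with 95% intervals from limma as lines) for the tested genes, without fenofibrate in orange and with it in purple; filled points passed an adjusted p of 0.05. Only Wee1 (-0.89, without fenofibrate) and Per2 (0.45, with it) are filled, and Dbp, Clock and Per2 lie on different sides of 0 in the 2 experiments.

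Of the repressors, Per2 rose with the B2D diet in the mice given fenofibrate, and it split the B2D mice without fenofibrate into high and low ones. Per2 encodes a core partner of the CRY proteins. With fenofibrate its level was 3.06, 3.07, 2.95 and 4.11 FPKM in Ctrl+FF mice and 4.91, 5.52, 4.53 and 4.37 FPKM in B2D+FF mice. The lowest B2D+FF mouse lay above the highest Ctrl+FF mouse, and the means were 3.30 ± 0.545 and 4.84 ± 0.512 FPKM. The log2 fold change was 0.45 (SE 0.104, adjusted p = 0.0463). The call is a narrow one. It was lost with no minimum on expression (adjusted p = 0.105) and with all 4 groups in 1 fit (0.316). It held without Ctrl+FF 4 (0.53, adjusted p = 0.0220), but without any one of the other 7 mice the adjusted p lay between 0.0596 and 0.136.

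Without fenofibrate, Per2 stood at 4.57, 4.57, 5.79, 5.52 and 4.12 FPKM in Ctrl and at 3.35, 2.87, 3.15, 7.47 and 7.84 FPKM in B2D. B2D mice 1 to 3 lay below every Ctrl mouse and B2D 4 and 5 above every one. The means, 4.91 ± 0.707 and 4.94 ± 2.49 FPKM, were nearly equal, and the log2 fold change of -0.085 had a 95% interval from -0.60 to 0.43 (adjusted p = 0.877).

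Per1, its relative that glucocorticoids induce directly, averaged 9.44 ± 3.04 FPKM in Ctrl (7.16, 9.92, 14.4, 8.72 and 6.99) and 11.4 ± 4.21 FPKM in B2D (11.9, 18.1, 7.33, 11.1 and 8.45). With fenofibrate it averaged 6.29 ± 1.72 FPKM in Ctrl+FF (4.93, 5.47, 5.95 and 8.79) and 9.58 ± 3.73 FPKM in B2D+FF (9.42, 14.8, 7.82 and 6.24). Ranges overlapped in both experiments, and neither log2 fold change passed (0.23, adjusted p = 0.632, and 0.50, adjusted p = 0.266).

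Cry1, the repressor that binds the ARNTL and CLOCK pair most tightly late in the cycle, had lower means in B2D than in control mice in each experiment. Its values were 2.29, 3.63, 3.63, 2.72 and 2.13 FPKM in Ctrl against 2.44, 1.96, 2.00, 2.67 and 1.59 FPKM in B2D. With fenofibrate they were 4.78, 4.38, 5.75 and 4.65 FPKM in Ctrl+FF against 3.55, 3.78, 3.83 and 5.43 FPKM in B2D+FF. In each experiment 3 mice of the B2D diet lay below every control mouse, and neither difference passed (log2 fold change -0.30, adjusted p = 0.278, and -0.20, adjusted p = 0.381).

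Nr1d1, the heme-binding nuclear receptor that represses Arntl, had higher means on the B2D diet in both experiments. Without fenofibrate it stood at 21.6, 16.4, 15.9, 19.8 and 20.9 FPKM in Ctrl and at 32.3, 25.2, 31.5, 20.2 and 26.6 FPKM in B2D. Of the 5 B2D mice, 4 lay above every Ctrl mouse. The means of 18.9 ± 2.63 and 27.2 ± 4.93 FPKM gave a log2 fold change of 0.49 (SE 0.141), which did not pass (adjusted p = 0.0943, and 0.0558 to 0.227 over 19 alternative settings). With fenofibrate the levels were 3.94, 6.22, 3.70 and 6.41 FPKM in Ctrl+FF and 9.35, 9.30, 4.40 and 6.07 FPKM in B2D+FF. Here 2 of 4 B2D+FF mice lay above all Ctrl+FF mice, and the log2 fold change of 0.43 (SE 0.238) did not pass either (adjusted p = 0.341).

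Among the outputs, Wee1 was the only one of the 9 genes to pass without fenofibrate. Wee1 encodes a kinase that delays entry into mitosis and is a classical E-box target of the liver clock. Its level was 6.08, 5.55, 4.58, 7.57 and 6.67 FPKM in Ctrl and 2.37, 1.73, 5.45, 2.55 and 2.66 FPKM in B2D. B2D mice 1, 2, 4 and 5 lay far below every Ctrl mouse, while B2D 3 lay inside the Ctrl range. From 6.09 ± 1.13 to 2.95 ± 1.44 FPKM, the mean was 2.06-fold lower (log2 fold change -0.89, SE 0.201, adjusted p = 0.0380).

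The Wee1 call was stronger without B2D 3 (-1.09, adjusted p = 0.00351) and held without Ctrl 3. Without any one of the other 8 mice, the adjusted p lay between 0.0665 and 0.109, with a log2 fold change of -0.78 to -0.92. The test on recovered reads gave -1.14 (adjusted p = 0.0160), and with no minimum on expression the call was lost (adjusted p = 0.129). With fenofibrate, Wee1 stood at 4.14, 4.80, 3.89 and 5.06 FPKM in Ctrl+FF and at 3.42, 5.35, 3.19 and 3.71 FPKM in B2D+FF. The log2 difference of -0.17 had a 95% interval from -0.47 to 0.14 (adjusted p = 0.519).

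Dbp, the transcription factor that carries the clock's output to liver enzymes through D-boxes, was lower in the B2D mean without fenofibrate and higher with it, and passed in neither. Ctrl mice stood at 36.0, 21.9, 19.8, 34.8 and 21.5 FPKM and B2D mice at 16.6, 13.3, 17.3, 21.1 and 23.2 FPKM. The 2 highest Ctrl mice, 1 and 4, were well apart from the rest, and 3 of 5 B2D mice lay below all Ctrl mice. With fenofibrate the values were 5.15, 4.83, 5.06 and 6.57 FPKM in Ctrl+FF and 8.30, 11.3, 5.86 and 4.22 FPKM in B2D+FF. Log2 fold changes were -0.50 (SE 0.196, adjusted p = 0.199) and 0.33 (SE 0.233, adjusted p = 0.458).

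To compare the morning arm with the evening arm, the mean log2(FPKM + 1) of Arntl, Npas2 and Clock was set against that of Per1, Per2, Nr1d1, Dbp and Wee1 in each mouse, as a description with no test. Without fenofibrate, the evening arm stood above the morning arm by 2.72 ± 0.199 log2 units in Ctrl and by 2.30 ± 0.183 in B2D (SD, n = 5 each). The gap was thus 0.42 smaller in the B2D mean, with ranges of 2.42 to 2.94 in Ctrl and 2.01 to 2.51 in B2D. The larger part of the difference lay in the morning arm, which averaged 0.836 in Ctrl and 1.10 in B2D, against 3.55 and 3.40 for the evening arm. Ctrl 5, at 1.03, was the only Ctrl mouse within the morning-arm range of B2D (1.01 to 1.23). With fenofibrate the gap went the other way, from 1.46 ± 0.247 in Ctrl+FF to 1.88 ± 0.391 in B2D+FF (n = 4 each), with ranges of 1.29 to 1.82 and 1.47 to 2.35. There the morning arm averaged 1.07 in Ctrl+FF and 0.949 in B2D+FF, and the evening arm 2.52 and 2.83.

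The evening arm did not move as a block. In B2D against Ctrl, Nr1d1 and Per1 had higher means and Dbp and Wee1 lower ones, so that the repressor genes and the outputs of the same arm lay on both sides of 0. With fenofibrate, Per1, Per2, Nr1d1 and Dbp all had higher means in B2D+FF and Wee1 a lower one, while Arntl and Clock had lower ones. Scored on log2 of reads scaled for library size, which gives Arntl and Npas2 more weight (a scale added after the data were seen), the gap was 4.15 ± 0.618 in Ctrl and 2.68 ± 0.520 in B2D. That larger difference draws on Npas2, which had only 0 to 6 reads per Ctrl library. On that scale it was 2.07 ± 0.440 in Ctrl+FF and 2.65 ± 0.445 in B2D+FF.

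**Figure D3:**
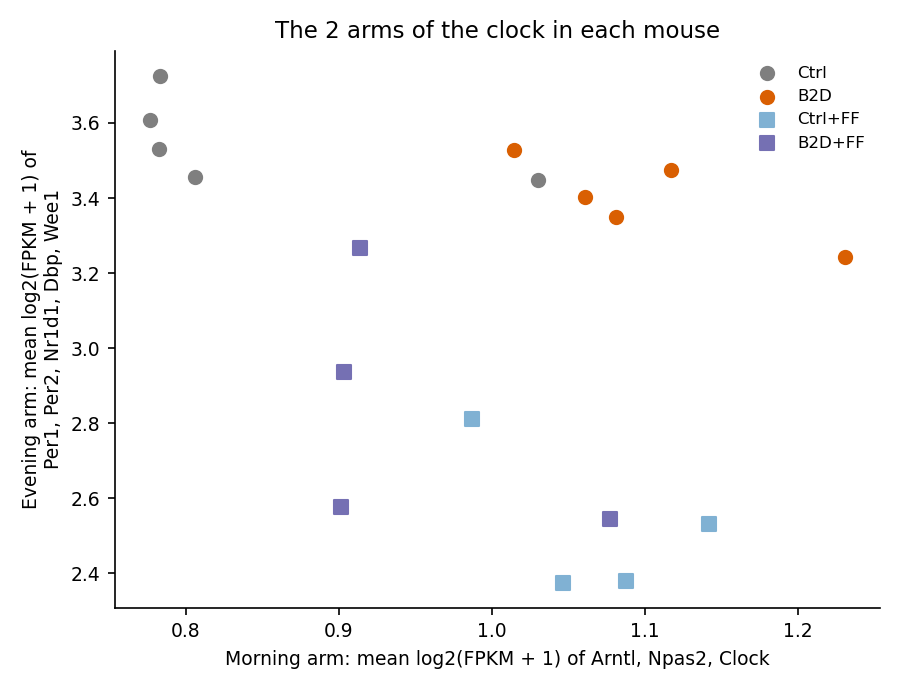
Mean log2(FPKM + 1) of the morning arm (x axis) against the evening arm (y axis) in each of the 18 mice, circles without and squares with fenofibrate. B2D mice lie to the right of 4 of 5 Ctrl mice, 3 of 4 B2D+FF mice lie to the left of all Ctrl+FF mice, and all mice with fenofibrate but B2D+FF 2 lie below every mouse without it on the evening axis.

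Whether the diet acted differently in the 2 experiments was tested as the difference of the 2 diet effects, all 18 mice in 1 fit. None of the 7 genes tested passed, where 0.145% of all genes did, and 3 of 7 lay under 0.05 before adjustment, against 11.9% of all genes. They were Dbp, with a difference of 0.83 (SE 0.321, adjusted p = 0.311), Wee1, with 0.73 (SE 0.271, adjusted p = 0.298), and Clock, with -0.37 (SE 0.146, adjusted p = 0.321). Arntl, under the minimum in this fit, gave -0.64 with no minimum on expression (SE 0.159, adjusted p = 0.162) and -1.96 on the recovered reads (SE 0.463, adjusted p = 0.112), where 0.0899% of genes passed. Fenofibrate, time on the diet and the expression table all change together between the experiments, so their parts in such a difference cannot be told apart.

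Nr1d1 and Dbp differed more between the experiments than between the diets. The 2 tables were normalised separately, so these levels are set side by side with no test; over all 11031 genes expressed in both, the median log2 ratio of means, with over without fenofibrate, was -0.070. Nr1d1 ranged from 15.9 to 32.3 FPKM in the 10 mice without fenofibrate and from 3.70 to 9.35 FPKM in the 8 with it, 3.73-fold apart in the mean. Dbp ranged from 13.3 to 36.0 FPKM and from 4.22 to 11.3 FPKM, 3.52-fold apart. No mouse of one experiment reached the range of the other for either gene, as for 10.8% of all genes, and 2.56% and 2.78% of all genes were at least as far apart in the mean as Nr1d1 and Dbp. The other 7 genes overlapped between the experiments.

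Between the control-diet groups alone, Arntl was 2.46-fold and Cry1 1.70-fold higher in Ctrl+FF than in Ctrl, and Nr1d1 was 3.74-fold, Dbp 4.96-fold and Per2 1.49-fold lower. None of these 5 overlapped between Ctrl and Ctrl+FF, as for 28.4% of all genes. Clock, Npas2, Per1 and Wee1 overlapped. Of the 4 group means, that of Arntl was thus lowest and that of Dbp highest in Ctrl, while in Ctrl+FF Arntl was highest and Dbp lowest. Hepatocyte markers took 7.08% to 10.2% of reads without fenofibrate and 4.21% to 5.30% with it, and the mitochondrial genome 5.22% to 9.41% and 6.71% to 9.27%. Their part in these differences was not tested.

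In a list of 33 other clock and output genes, 30 were tested in each experiment (Arntl2, Bhlhe41 and Fbxl21 were under the minimum). Without fenofibrate 0 passed as higher and 3 as lower in B2D, against 0.769% and 1.94% of all genes (2 and 10 lay under 0.05 before adjustment), and the median log2 fold change was -0.11 against -0.0013 over all genes. With fenofibrate 2 passed as higher and 1 as lower, against 2.24% and 2.21% of all genes, with a median of 0.059 against 0.013.

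Rora, which encodes a receptor that activates Arntl through ROREs, did not pass in either comparison (4.69 ± 0.847 against 5.17 ± 1.27 FPKM without fenofibrate, 4.19 ± 0.630 against 4.0 ± 0.941 FPKM with it).

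The 3 genes of the list that passed as lower in B2D by limma were outputs of the clock in liver. Alas1, the first enzyme of heme synthesis, fell from 290.6 ± 21.9 to 163.7 ± 34.7 FPKM (log2 fold change -0.85, SE 0.1497, adjusted p = 0.0143), and passed with any one mouse left out (0.0130 to 0.0424) but not with no minimum on expression (0.0535). Nampt, the enzyme that recycles nicotinamide into NAD, fell from 29.4 ± 3.52 to 17.9 ± 4.56 FPKM (-0.71, adjusted p = 0.0364). Elovl3, a fatty acid elongase with a strong daily rhythm in males, fell from 87.5 ± 44.6 to 27.1 ± 13.0 FPKM (-1.67, adjusted p = 0.0367). The calls of Nampt and Elovl3 were narrow, and neither passed with no minimum on expression (0.104 and 0.129). Nampt passed in 3 of 10 fits with 1 mouse left out, without Ctrl 1, B2D 3 or B2D 5, and lay at an adjusted p of up to 0.105 in the others. Elovl3 also passed in 3 of 10, without Ctrl 3, B2D 1 or B2D 3, and lay at up to 0.0900 in the others.

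With fenofibrate Elovl3 fell again, from 182.5 ± 37.3 FPKM in Ctrl+FF to 81.6 ± 29.8 FPKM in B2D+FF (-1.21, adjusted p = 0.0421). Rgs16, a regulator of G-protein signalling, was higher in B2D+FF, at 15.6, 17.4, 47.5 and 15.9 FPKM against 4.35, 3.22, 9.10 and 4.67 FPKM in Ctrl+FF (1.90, adjusted p = 0.0245). Pnpla2, adipose triglyceride lipase, rose from 101.3 ± 13.1 to 176.2 ± 29.9 FPKM (0.78, adjusted p = 0.0203). These calls too depended on single mice: with 1 mouse left out, Elovl3 passed in 3 of 8 fits (without Ctrl+FF 4, B2D+FF 2 or B2D+FF 4), Rgs16 in 5 of 8 (not without Ctrl+FF 1, 2 or 4) and Pnpla2 in 3 of 8 (without Ctrl+FF 4, B2D+FF 2 or B2D+FF 3). The adjusted p rose to at most 0.120, 0.0796 and 0.0726. With no minimum on expression it was 0.109, 0.0775 and 0.0535, and with all 4 groups in 1 fit Elovl3 (0.0949) and Rgs16 (0.0573) did not pass.

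**Figure D4:**
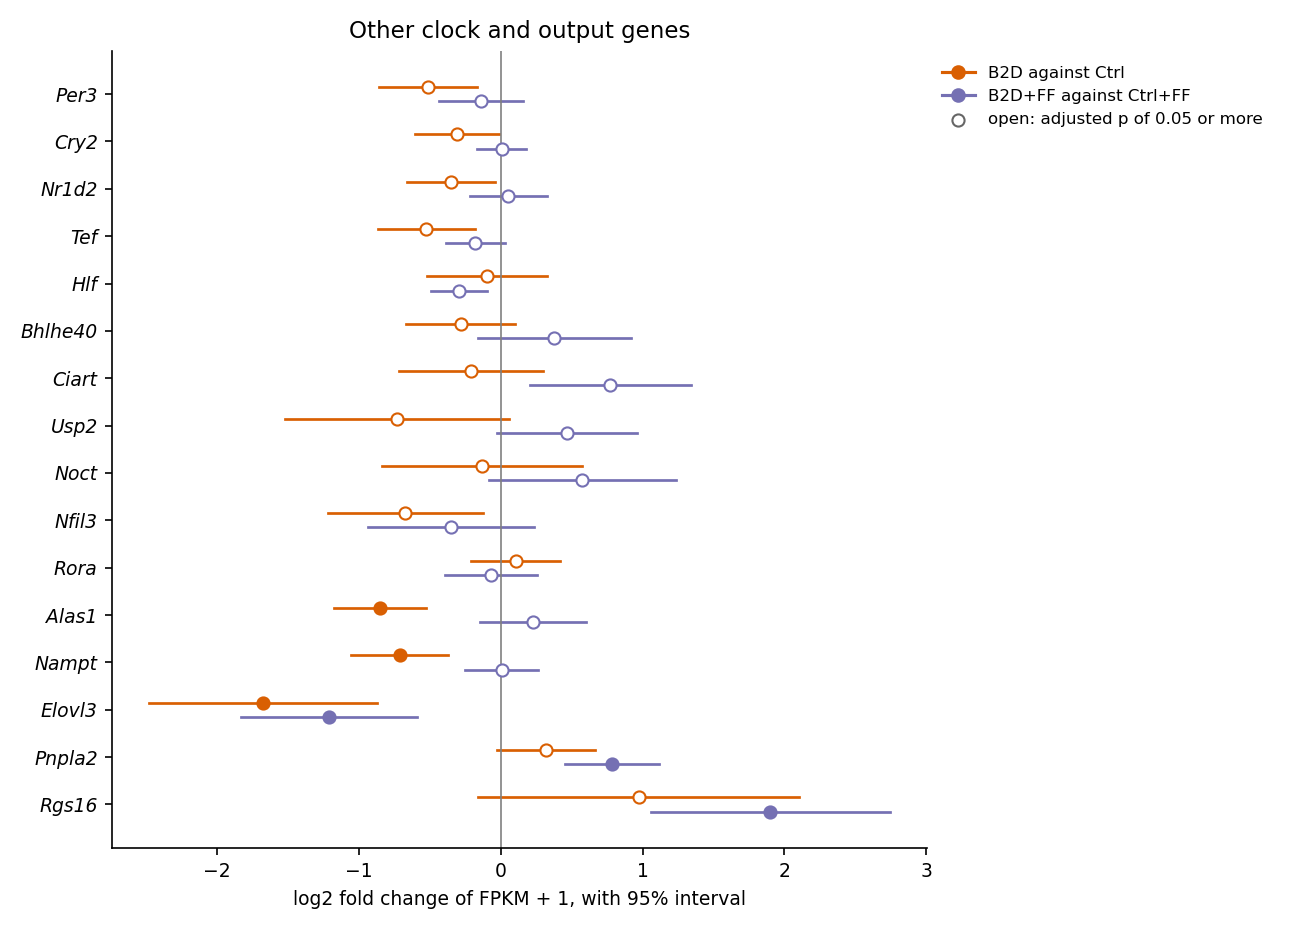
Log2 fold change of FPKM + 1 with the B2D diet (x axis; points, with 95% intervals from limma as lines) for 16 other clock and output genes, without fenofibrate in orange and with it in purple; filled points passed an adjusted p of 0.05. The first 9 genes from the top, evening-arm relatives, all lie below 0 without fenofibrate and none of them is filled; Alas1, Nampt and Elovl3 are filled below 0.

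Further genes of the evening arm had lower means in B2D, and no single one passed in the main fit. Of 10 such genes listed, 9 were tested, all 9 had a log2 fold change below 0 without fenofibrate (median -0.31), as did 5806 of all 11574 genes, and 0 passed in limma's test or by voom on the reads, where 1.94% of all genes passed as lower by limma. Before adjustment 4 lay under 0.05, against 18.4% of all genes in either direction, namely Per3, Cry2, Nr1d2 and Tef. Per3 averaged 3.03 ± 0.521 FPKM in Ctrl and 1.88 ± 0.729 FPKM in B2D (-0.51, adjusted p = 0.117). Of 18 alternative settings it passed in 2, with all 4 groups in 1 fit (adjusted p = 0.0461) and without B2D 5 (-0.64, adjusted p = 0.0278). Tef, a relative of Dbp, averaged 29.7 ± 3.77 and 20.7 ± 4.88 FPKM (-0.52, adjusted p = 0.109). It passed in 1 of 19 alternative settings, with all 4 groups in 1 fit (adjusted p = 0.0266). Nr1d2, the close relative of Nr1d1, averaged 23.3 ± 4.61 and 17.9 ± 2.40 FPKM (-0.35, adjusted p = 0.221), where Nr1d1 itself had the higher mean in B2D. Cry2 averaged 6.24 ± 1.29 and 4.83 ± 0.774 FPKM (-0.31, adjusted p = 0.256).

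Hlf, the third of the Dbp family, averaged 11.9 ± 2.64 FPKM in Ctrl and 11.2 ± 2.95 FPKM in B2D, Bhlhe40 13.7 ± 2.69 and 11.1 ± 2.55 FPKM, and Ciart, a repressor of the ARNTL and CLOCK pair, 7.81 ± 1.01 and 7.08 ± 3.16 FPKM. Bhlhe41 was under the minimum, at 0.471 ± 0.158 and 0.394 ± 0.138 FPKM. Nfil3, which competes with DBP for D-boxes, was listed as a relative of the morning arm, not of the evening arm. It averaged 8.27 ± 1.25 and 5.19 ± 2.33 FPKM (-0.67, adjusted p = 0.185). Its mean was thus lower in B2D, where that of the morning arm was higher.

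With fenofibrate, 6 of the 9 tested evening-arm relatives lay above 0 and 3 below, and again 0 passed by limma or voom, with Ciart (higher) and Hlf (lower) under 0.05 before adjustment. Ciart averaged 5.14 ± 2.03 FPKM in Ctrl+FF and 9.49 ± 3.31 FPKM in B2D+FF (0.77, adjusted p = 0.114), and it passed when Ctrl+FF 4 was left out (0.98, adjusted p = 0.0468). Hlf averaged 9.43 ± 0.682 and 7.51 ± 0.720 FPKM with no overlap (-0.29, adjusted p = 0.0914). Means with fenofibrate, Ctrl+FF before B2D+FF, were 2.51 and 2.16 FPKM for Per3, 6.01 and 6.03 FPKM for Cry2, 16.9 and 17.6 FPKM for Nr1d2, 18.2 and 15.9 FPKM for Tef, 9.79 and 13.8 FPKM for Bhlhe40, 0.174 and 0.209 FPKM for Bhlhe41, and 6.72 and 5.50 FPKM for Nfil3.

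Glucocorticoids and fasting act on Per1 and other clock genes, so 12 genes that respond to them were listed beside the clock. Without fenofibrate 2 of 12 passed as higher in B2D (Mt1 and Cdkn1a), against 0.769% of all genes, and with it 4 of 12 did (Mt1, Tat, Pck1 and Fkbp5), against 2.24%, with 0 lower in either, also before adjustment; apart from Fkbp5 these were named after their values were seen. Fkbp5, a co-chaperone of the glucocorticoid receptor that the receptor induces, stood at 9.44, 10.01, 8.97 and 12.0 FPKM in Ctrl+FF and at 16.8, 12.9, 17.6 and 15.3 FPKM in B2D+FF (0.58, adjusted p = 0.0275). That call held in 2 of 8 fits with 1 mouse left out, without Ctrl+FF 4 or B2D+FF 2, and the adjusted p rose to at most 0.0927 in the others. It was also lost with no minimum on expression (0.0621) and with all 4 groups in 1 fit (0.423). Without fenofibrate Fkbp5 averaged 10.1 ± 3.63 and 14.0 ± 7.75 FPKM (adjusted p = 0.711).

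Sgk1, a kinase induced by the same receptor, averaged 5.01 ± 1.29 FPKM in Ctrl and 8.56 ± 1.77 FPKM in B2D (0.68, adjusted p = 0.0685). It passed in 6 of 19 alternative settings, among them array weights (adjusted p = 0.0289) and all 4 groups in 1 fit (0.0268). The fit without B2D 3 was another (0.81, adjusted p = 0.0243). In the settings where it did not pass, the adjusted p rose to at most 0.185. With fenofibrate Sgk1 averaged 4.46 ± 0.684 and 5.67 ± 1.66 FPKM. Tsc22d3, the glucocorticoid-induced leucine zipper, averaged 17.995 ± 5.75 and 21.6 ± 5.22 FPKM without fenofibrate and 18.03 ± 5.54 and 15.6 ± 2.87 FPKM with it, and passed in neither. The part of these genes in the clock values was not tested.

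To find genes whose pattern was most like that of the activator Arntl or the output Dbp, log2(FPKM + 1) was centred on the mean of each experiment and correlated over the 18 mice with 4281 protein-coding genes above 5 FPKM in both tables. This is a description: the genes compared share the same 18 libraries, and the diet groups are part of the pattern. Most like Arntl were Mreg (Pearson r = 0.81), Ddc (0.76), Clpx (0.75), Fasn (0.74) and Als2cl (0.70). Ddc encodes the decarboxylase of aromatic amino acids, Clpx a subunit of a mitochondrial protease and Fasn fatty acid synthase. Most like Dbp were Habp4 (0.75), Dmac2 (0.73), Bhlhe40 (0.72), Cyp51 (0.69) and Neu1 (0.68), of which Bhlhe40 encodes a clock repressor and Cyp51 an enzyme of cholesterol synthesis. Centred on the 4 groups instead, r lay between 0.61 and 0.71 for the Arntl genes and between 0.50 and 0.69 for the Dbp genes. Some likenesses were uneven between the experiments. Without and with fenofibrate, r was 0.90 and 0.42 for Als2cl, 0.84 and 0.34 for Neu1, and 0.49 and 0.96 for Bhlhe40. Within its own arm, Arntl had an r of 0.24 with Npas2 and 0.46 with Clock over the 18 mice.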

How the data were processed

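Liver RNA of 18 mice was sequenced. Per the labels and the study's methods, the authors made poly(A) libraries, aligned paired reads to mm10 with STAR, counted them with featureCounts and tested them with DESeq2; versions are not given in the sources used here. The deposited values used here are FPKM, computed by the authors per gene in 1 table for each experiment, each table scaled on its own. Columns were matched to samples by the mouse number in the titles.

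The tests were run with limma 3.58.1 in R 4.3.3 allowing the variance to follow the mean level. They used log2(FPKM + 1) and genes with a mean of at least 0.5 FPKM, with Benjamini-Hochberg adjustment over all genes; limma was chosen because the deposited values are FPKM. All values checked (100%) were whole reads once divided by the value of 1 read, and values of the highest read counts were rounded without this check. An alternative was voom on these reads. Precision follows the reads per gene; the limit of 3 reads for a count of 0 covers counting error only. P-values and the 95% intervals from limma set each difference against the spread between mice. The variance of each gene was drawn toward that of genes at a similar level. The scripts were tested on simulated data. Alternatives were another pseudocount (0.1), no minimum or a minimum of 5 FPKM, upper-quartile and quantile scaling, array weights, all groups in 1 fit and each mouse left out.

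The 9 genes, the arms and the gene lists were chosen with earlier results of these data known. Named genes were the 9; from 33 other clock genes those that passed and 10 fixed ones (Nr1d2, Per3, Cry2, Tef, Hlf, Nfil3, Bhlhe40, Bhlhe41, Rora and Ciart); Fkbp5, Tsc22d3 and Sgk1; and the 5 genes most like Arntl and Dbp. Motifs were searched in RefSeq promoter windows of GRCm38.p6. One further listed gene is not reported here.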

Additional observations from a re-analysis of the deposited data

Results flagged for a closer look

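In 3 of 36 sets of 1 gene and 1 group, a single mouse lay apart from the others by Dixon's test, which flags about 1 in 20 by chance. Wee1 in B2D 3 was 5.45 FPKM, where the next highest of the B2D mice was 2.66 FPKM. Per2 in Ctrl+FF 4 was 4.11 FPKM, where the next was 3.07 FPKM. Cry1 in B2D+FF 4 was 5.43 FPKM, where the next was 3.83 FPKM. Each of these mice lay toward the values of the other diet group, and the 2 calls of the set, Wee1 without and Per2 with fenofibrate, had larger fold changes without B2D 3 or Ctrl+FF 4.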

How the results depend on the processing

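No paired analysis was possible because the titles carry only mouse numbers that no 2 groups share. Without fenofibrate, 313 genes passed, against 67 with no minimum on expression, 777 with all 4 groups in 1 fit and 98 to 332 with 1 mouse left out. Of the clock genes 1 passed, against 0 with no minimum, 0 with a minimum of 5 FPKM, 2 with all 4 groups in 1 fit and 0 to 1 with a mouse left out. With fenofibrate, 529 genes passed, against 272 with no minimum, 885 with array weights, 796 by voom with at least 10 reads and 175 to 596 with a mouse left out. Of the clock genes 1 passed, against 0 with no minimum, 0 with a minimum of 5 FPKM, 0 with all 4 groups in 1 fit, 2 by voom under either minimum and 0 to 1 with a mouse left out. The difference of the diet effects passed for 16 genes, against 6 with a minimum of 5 FPKM, 112 with array weights and 8 to 44 with a mouse left out. The gap between the arms differed between B2D and Ctrl by -0.42 (-0.91 with a pseudocount of 0.1, -0.23 without Wee1, -1.46 on log2 of reads scaled for library size, -0.49 to -0.35 with a mouse left out), and with fenofibrate by 0.42 (0.27 to 0.56 with a mouse left out).

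The sign turned for values near 0: Per2 without fenofibrate (0.017 with array weights, -0.25 to 0.044 with a mouse left out), and Cry2 and Nampt with fenofibrate (-1.9e-05 by upper quartiles for Cry2, -0.029 and -3.4e-04 by quantiles). With a mouse left out, these and others ranged from -0.023 to 0.062 (Cry2), -0.048 to 0.077 (Nampt), -0.0073 to 0.14 (Nr1d2), -0.15 to 0.041 (Rora) and -0.088 to 0.015 (Clock) with fenofibrate, from -0.18 to 0.070 (Hlf) and -0.0048 to 0.17 (Rora) without it, and from -0.19 to 0.13 (Nr1d1) and -0.014 to 0.17 (Cry1) for the difference of the effects. With a mouse left out, the numbers of genes that passed lay both below and above the main ones. With no minimum on expression, more genes were tested and fewer passed in each diet comparison. Under a minimum of 5 FPKM, only 3 of the clock genes were tested in each experiment. The cause of these shifts was not tested. With 23 to 120 reads of Arntl and 0 to 32 of Npas2 per library, depth limits both.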
